A study of Saccharomyces cerevisiae with 6 samples.

Results

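The genes that tell the mating types of yeast apart, and the pheromone genes that belong with them, were read in the wine strain P5 and in its evolved derivative P5-EM. They were 10 genes of the 5449 S. cerevisiae genes on the array, chosen by name: ASG7, MFA1, MFA2, STE2, STE6, BAR1 and AGA2, which cells of mating type a express, STE3, which cells of mating type α express, and AGA1 and FUS1, which haploid cells of either type express. Each had 1 probe set and all 10 were tested, with no filter on low signal.

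P5 is a commercial Saccharomyces cerevisiae wine strain. P5-EM is 1 isolate derived from it, taken from a mixed culture of 27 such strains that had been treated with the mutagen ethyl methanesulfonate and then kept for 200 generations in must at low temperature. RNA came from 3 separate cultures of each strain, fermenting SM1, a synthetic grape must low in inositol, at 12 °C, taken at 96 h in exponential growth, so a difference between strains cannot be told apart from one in growth stage at that single time. The 6 arrays were Affymetrix Yeast Genome 2.0 arrays, and each value is a normalized hybridisation signal on the log2 scale. The methods made a haploid from P5 by sporulation, so the strain grown here was not itself a haploid. The alleles at its mating-type locus are not given in the sources used here.

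Haploid yeast comes as a cells and α cells. The a cells secrete a-factor and carry the receptor for α-factor, the α cells do the converse, and binding of pheromone starts a kinase cascade that ends at the transcription factor Ste12. In a/α diploids the protein α2, with Mcm1, holds the a-specific genes off, and the pair a1 and α2 holds the haploid-specific genes off, so such cells do not mate. Whether a mixed culture holds a few cells with a high level of a transcript or many with a low level cannot be told apart in these bulk samples.

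The array also carries 1746 probe sets for single genes of the fission yeast S. pombe, whose RNA these cultures lack. The 95th percentile of their signals, between 2.28 and 2.59 on the 6 arrays, was taken as background. Of all 5449 genes, 98.97% lay above it on at least 1 P5 array and 98.84% on at least 1 P5-EM array. By the same count all 10 mating genes were above background in both strains. On all 3 arrays of a strain, 10 were above it in P5 and 8 in P5-EM, the exceptions being STE3 and MFA1. By that stricter count, 5380 of all 5449 genes were above it in P5 and 5314 in P5-EM. P5-EM replicate 1 stood apart from the other P5-EM arrays (r = 0.9672 and 0.9537 across genes, against 0.9904 between replicates 2 and 3), so values without it are given beside those with it for each of the 10 genes and, for the genes of the lists around them, where a call changed. It was the highest or the lowest of the 6 arrays for 65.1% of all genes and for 6 of the 10 mating genes. P5 replicate 1 was so for 34.6% of all genes and likewise for 6 of the 10.

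**Figure D1:**
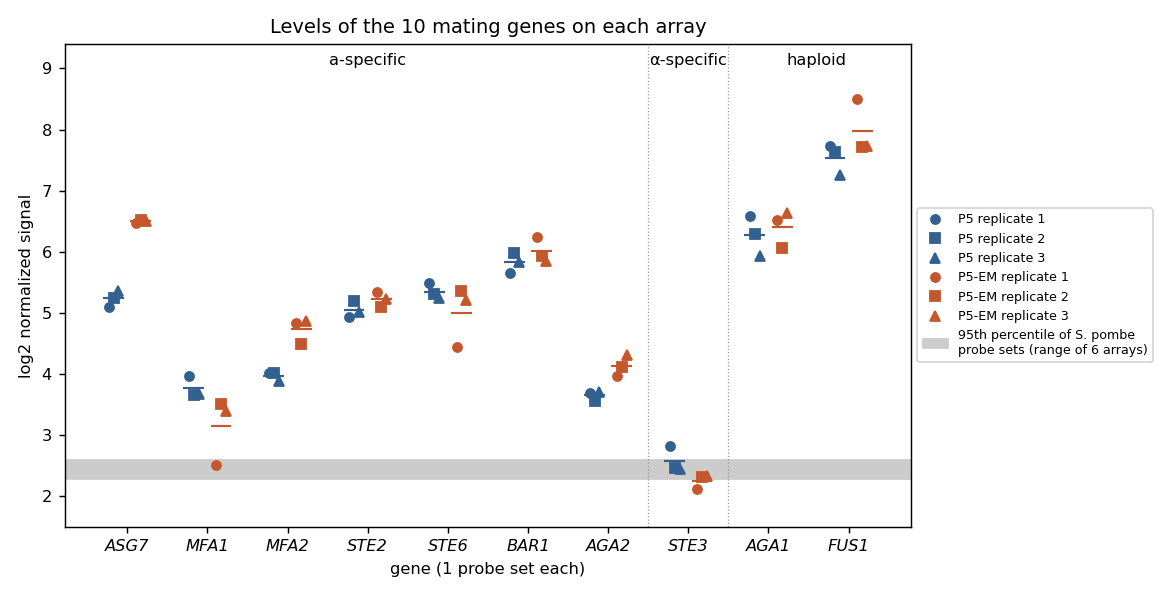
Log2 normalized signal (vertical axis) of each of the 10 mating genes on the 6 arrays, with a point per array, a bar at each strain's mean of 3 arrays and a grey band for background, the range of the S. pombe 95th percentiles (2.28 to 2.59). ASG7, MFA2 and AGA2 were higher on every P5-EM array than on any P5 array, and STE3 lay close to background in both strains.

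ASG7 and MFA2 were higher in P5-EM than in P5, and none of the 10 genes was called lower. ASG7 encodes a protein that a cells make and that dampens pheromone signalling after mating. MFA2 is one of the genes for the a-factor precursor. The change was 2.39-fold for ASG7 and 1.69-fold for MFA2. A gene was called when limma gave an adjusted p of 0.05 or less over all 5498 S. cerevisiae probe sets, at any fold. Under this rule 2 of 10 mating genes were called, against 13.9% of all probe sets. Both were higher, against 6.09%, and 0 were lower, against 7.78% (0 also at an unadjusted p under 0.05, where 3 were higher). At 2-fold or more, ASG7 alone was called, against 1.33% of probe sets higher and 2.6% lower. The median log2 fold change, P5-EM minus P5, was 0.18 over the 10 genes and -0.04 over all genes tested.

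ASG7 had log2 signals of 5.10, 5.25 and 5.36 on the P5 arrays and 6.48, 6.52 and 6.50 on the P5-EM arrays. Every P5-EM array thus lay above every P5 array, and the P5-EM cultures were alike to within an SD of 0.02, including replicate 1. Its mean rose from 5.24 ± 0.13 to 6.50 ± 0.02 (SD, n = 3), a log2 fold change of 1.26 (SE 0.11, 95% interval 0.99 to 1.53, adjusted p = 0.00652, limma). No probe set had a lower adjusted p, but the value was tied. CHS1 and PRM4, both lower in P5-EM, shared it. Their unadjusted p was 6.72e-06 and 1.25e-05, against 1.46e-05 for ASG7 (limma). In linear units its mean went from 37.8 to 90.3. Without P5-EM replicate 1 the log2 fold change was 1.27 (adjusted p = 0.000814). Without P5 replicate 2 or P5 replicate 3 ASG7 missed the threshold (adjusted p = 0.0574 and 0.0689), as did every probe set of the array (0 called in each case, with 1318 and 1222 at an unadjusted p under 0.05).

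The nearest measured genes beside ASG7 on its chromosome did not pass. CPS1, for a vacuolar carboxypeptidase, and SET2, for a histone methyltransferase, had log2 fold changes of 0.14 and -0.36 (adjusted p = 0.677 and 0.282, limma). Over the nearest measured genes on both sides of all 10 mating genes, 2 of 20 were called higher and 0 lower, beside 6.09% and 7.78% of all probe sets. They were MRPL28 beside MFA1 and SNL1 beside BAR1, at 0.49 and 0.44 (adjusted p = 0.0417 and 0.0411). Neither of the mating genes next to them was called.

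MFA1 and MFA2 encode 2 precursors of a-factor, a short peptide that carries a farnesyl group and that STE6 exports. MFA2 read 4.01, 4.01 and 3.88 in P5 and 4.84, 4.49 and 4.86 in P5-EM, so the strains did not overlap. Its log2 fold change was 0.76 (SE 0.14, 95% interval 0.43 to 1.09, adjusted p = 0.0219, limma), and by 0.70 without P5-EM replicate 1 (0.00973). Its call was lost without any single P5 array (adjusted p = 0.0773, 0.0924 and 0.109 without replicates 1, 2 and 3). MFA1 moved the other way and did not pass. It read 3.97, 3.66 and 3.67 in P5 and 2.52, 3.52 and 3.39 in P5-EM. All 3 P5-EM arrays were below P5, with P5-EM replicate 1 far under the others and below that array's background of 2.59. The log2 fold change of MFA1 was -0.62 (SE 0.27, 95% interval -1.27 to 0.03, adjusted p = 0.16, limma) and -0.31 without that array (0.122), and the interval over all arrays reached past 2-fold lower.

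The a-factor genes were also compared within each array, which cancels whatever acts on a whole array alike. The log2 signal of MFA2 minus that of MFA1 was 0.04, 0.36 and 0.22 in P5 and 2.32, 0.97 and 1.47 in P5-EM. The strains did not overlap, and the difference between them was 1.38, or 1.01 without P5-EM replicate 1. With 3 arrays against 3, an exact permutation test cannot go below p = 0.1, which this difference reached (two-sided, and adjusted p = 0.15 over the 3 pairs of partner genes compared). The p thus says nothing beyond the lack of overlap. The 2.32 of P5-EM replicate 1 rests on an MFA1 signal below background. With MFA1 set to that array's background, a choice made after seeing the data, the value there was 2.25 and the difference between strains 1.36.

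**Figure D2:**
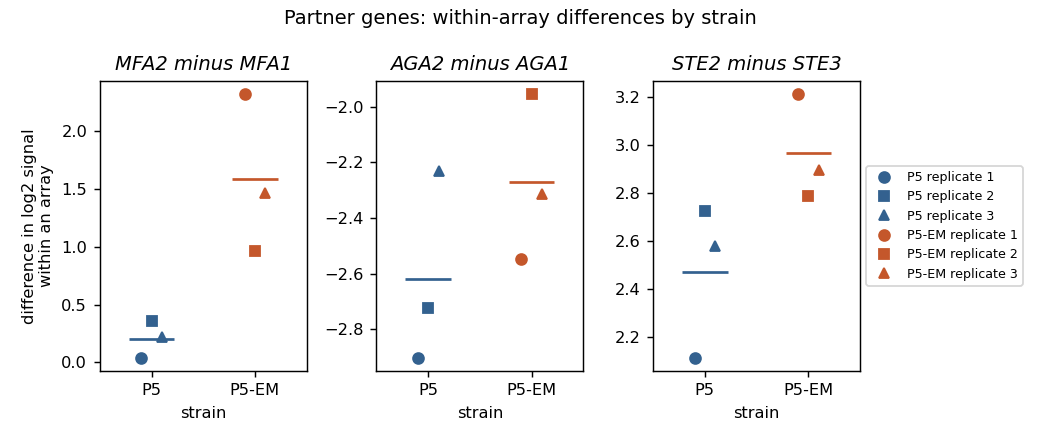
Difference in log2 normalized signal between partner genes within an array (vertical axis, on its own range in each panel), by strain, with a point per array and a bar at the mean of 3. MFA2 minus MFA1 was higher on every P5-EM array than on any P5 array, with MFA1 below background on P5-EM replicate 1, and AGA2 minus AGA1 overlapped. In the STE2 minus STE3 panel, STE3 was below background on P5-EM replicates 1 and 2.

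STE6, the transporter that exports a-factor, and BAR1, the secreted protease with which a cells degrade α-factor, did not pass. STE6 read 5.48, 5.31 and 5.24 in P5 and 4.45, 5.35 and 5.21 in P5-EM. Only P5-EM replicate 1 was away from the rest, and the strains overlapped. The log2 fold change of STE6 was -0.34 (95% interval -0.92 to 0.23, adjusted p = 0.345, limma) and -0.07 without replicate 1 of P5-EM. BAR1 read 5.66, 5.98 and 5.84 in P5 and 6.25, 5.92 and 5.84 in P5-EM, again with replicate 1 of P5-EM as the outer value. Its log2 fold change was 0.18 (95% interval -0.19 to 0.55, adjusted p = 0.432, limma), an interval that leaves out a 2-fold change either way, and 0.06 without replicate 1 of P5-EM.

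Of the receptors, STE2 binds α-factor on a cells and STE3 binds a-factor on α cells. STE2 read 4.93, 5.19 and 5.02 in P5 and 5.34, 5.10 and 5.22 in P5-EM, well above background on each array. The strains overlapped, with a log2 fold change of 0.18 (95% interval -0.12 to 0.47, adjusted p = 0.349, limma), or 0.12 without P5-EM replicate 1. STE3 was the dimmest of the 10 relative to background. It read 2.81, 2.46 and 2.45 in P5, above background on all 3 arrays, and 2.12, 2.32 and 2.33 in P5-EM, above it on replicate 3 alone. In P5, 39 of the S. pombe probe sets had a mean signal at or above that of STE3, or 2.23%, and in P5-EM 130, or 7.45%. No S. pombe probe set reached the mean of any of the other 9 genes in P5, and in P5-EM 6 did so for MFA1 and none for the other 8. The strains did not overlap for STE3, and its log2 fold change of -0.32 did not pass (95% interval -0.66 to 0.02, adjusted p = 0.169, limma), nor did its -0.25 without P5-EM replicate 1 (0.212). STE2 minus STE3 within an array was 2.11, 2.73 and 2.58 in P5 and 3.21, 2.79 and 2.90 in P5-EM. These values did not overlap, but STE3 was below background on P5-EM replicates 1 and 2. With STE3 set to background there, those arrays read 2.74 and 2.70 and the strains overlapped, so no difference between the receptors is read from them.

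AGA2 and AGA1 encode the subunits of a-agglutinin, with which a cells stick to α cells. AGA2 is the binding subunit and AGA1 anchors it in the wall. AGA2 read 3.69, 3.57 and 3.70 in P5 and 3.97, 4.11 and 4.31 in P5-EM, and every P5-EM array was above every P5 array. Its log2 fold change of 0.48 (SE 0.13, 95% interval 0.18 to 0.79) just missed the threshold (adjusted p = 0.0525, limma). It passed without P5-EM replicate 1, at 0.56 (0.0117). AGA1, which pheromone raises in both mating types, read 6.59, 6.29 and 5.93 in P5 and 6.52, 6.07 and 6.63 in P5-EM. The strains overlapped throughout, with a log2 fold change of 0.13 (95% interval -0.39 to 0.66, adjusted p = 0.686, limma), or 0.08 without P5-EM replicate 1. The within-array difference between the subunits overlapped as well (0.35 higher in P5-EM, 0.48 without P5-EM replicate 1, exact permutation p = 0.3).

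FUS1, a membrane protein gene of cell fusion that pheromone induces strongly in haploids, read 7.73, 7.63 and 7.26 in P5 and 8.49, 7.72 and 7.73 in P5-EM. Only P5-EM replicate 1 stood clear of P5. The log2 fold change of FUS1 was 0.44 (95% interval -0.15 to 1.03, adjusted p = 0.244, limma) and 0.18 without that array.

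**Figure D3:**
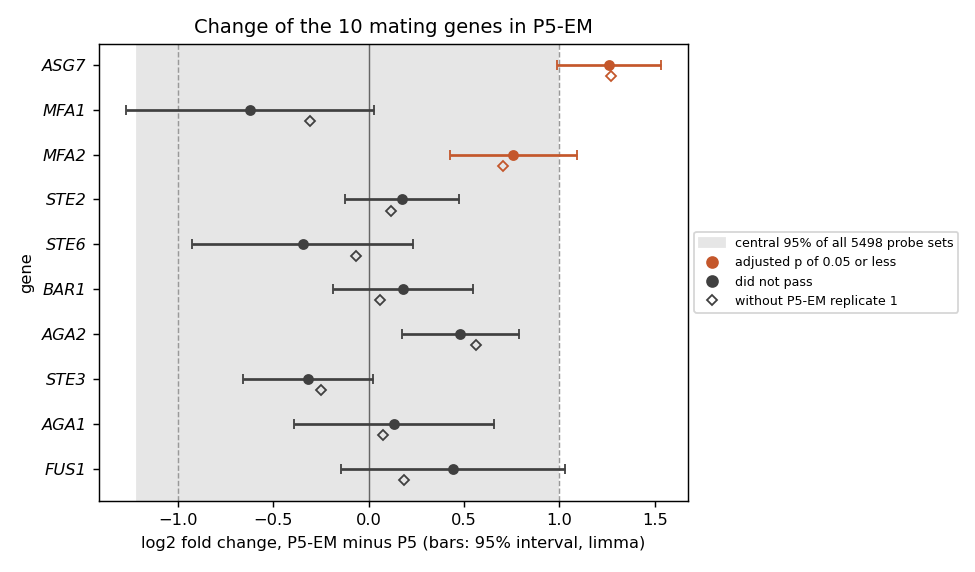
Log2 fold change of each mating gene (horizontal axis, P5-EM minus P5, limma, n = 3 arrays a strain) with its 95% interval, the value without P5-EM replicate 1 as an open diamond, dashed lines at 2-fold and a grey band for the central 95% of all 5498 probe sets. ASG7 (1.26) and MFA2 (0.76) passed the threshold, and MFA1, STE6 and FUS1 moved toward 0 without P5-EM replicate 1.

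Counted by overlap, the P5-EM arrays lay wholly above P5 for 3 of the 10 genes (ASG7, MFA2 and AGA2) and wholly below for 2 (MFA1 and STE3). Over all probe sets these shares were 21.1% and 24.6%. Dim probe sets as a whole ran lower in P5-EM. The 919 with a mean log2 signal under 6, among them 8 of the mating genes, had a median log2 fold change of -0.22, and 3.26% of them were called higher and 10.3% lower. Quantile normalization over the S. cerevisiae probe sets brought that median to 0.05 and the median of the 10 mating genes from 0.18 to 0.40, while the median over all probe sets moved from -0.04 to 0.01. Under it ASG7 stood at 1.48, MFA2 at 1.13 and AGA2 at 0.90, and all 3 passed (adjusted p = 0.00464, 0.0176 and 0.0208, limma). STE2, BAR1, MFA1 and STE6 stood at 0.49, 0.35, -0.24 and -0.03 and did not pass, and STE3 turned to 0.06 (0.775). Median centring left AGA2 at 0.49 and brought it past the threshold (0.0412).

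By the measure of likeness used, Pearson's r over the 6 arrays among 5310 genes above background on each, the profile of ASG7 was closest to those of YGR121W-A (0.9973), CCP1 of cytochrome c peroxidase (0.995) and CCC1, a vacuolar iron transporter gene (0.9883). MFA2 was closest to BIO4 of biotin synthesis (0.9996), the wall glucanase gene SCW11 (0.9959) and PEX6 of peroxisome assembly (0.9955). The 6 arrays come from 2 strains, and r was over 0.95 for 87 genes with ASG7 and for 121 with MFA2.

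The genes around the 10 were then counted, to see whether the rest of the mating machinery moved. Of 81 measured genes in 7 lists, 1 was called higher and 7 lower, and 73 did not pass, with a median log2 fold change of -0.10 (-0.04 over all genes). The shares over all probe sets were 6.09% higher and 7.78% lower. Without P5-EM replicate 1, 7 were higher and 16 lower, when 12.2% and 14.4% of all probe sets were. The other α-specific genes had no call. The α-factor genes MF(ALPHA)1 and MF(ALPHA)2, the agglutinin gene SAG1 and AFB1 had log2 fold changes of 0.05, -0.37, 0.06 and -0.42, and 0 of 4 passed (adjusted p from 0.0571 to 0.793, limma). AFB1 was lower without P5-EM replicate 1 (0.0336). All 4 were above background on every array. Mean log2 signals in P5 and P5-EM were 8.15 and 7.78 for MF(ALPHA)2, 7.73 and 7.79 for SAG1, and 5.82 and 5.41 for AFB1. MF(ALPHA)1 lay nearer background, at 3.00 and 3.05, with 4 and 8 S. pombe probe sets at or above its mean.

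Among 10 haploid-specific genes, NEJ1 of DNA end joining was lower and the other 9 did not pass, when 7.78% of all probe sets were lower and 6.09% higher. All 10 were above background on every P5 array and 9 on every P5-EM array, beside 5380 and 5314 of all 5449 genes. Mean log2 signals ran from 3.10 (NEJ1) to 8.90 (FAR1) in P5, and from 2.46 to 8.21 for the same genes in P5-EM. NEJ1 went from 3.10 ± 0.20 to 2.46 ± 0.14 (SD, n = 3, adjusted p = 0.0385, limma), near background in P5-EM, and its call was lost in 7 of 14 alternatives, among them quantile normalization (-0.27, 0.165), the replicate block (0.0961), the methods' t-test (0.0875), and leaving out any P5 array or P5-EM replicate 2 (0.086 to 0.147). Without P5-EM replicate 1 it was at -0.56 (0.022). STE4, for the beta subunit of the G protein that pheromone receptors act on, was at 0.51 and just missed (0.0502). FAR1, which arrests the cell cycle on pheromone, was at -0.69 (0.0892), and RME1, a repressor of meiosis, at 0.31 (0.145). The G alpha gene GPA1 and the endonuclease gene HO had 0.12 and -0.08. Without P5-EM replicate 1, STE4 and RME1 passed toward higher (0.0366 and 0.047) and FAR1 toward lower (0.00536). The list's median was -0.02.

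Of 17 genes of the kinase cascade and its transcription factors, PTP2 was lower and 16 did not pass (median -0.26). Over all probe sets 7.78% were lower and 6.09% higher. PTP2, a tyrosine phosphatase gene that acts on several mitogen-activated kinases, fell by 1.06 on the log2 scale (SE 0.17, adjusted p = 0.0155, limma). Its call was lost in 5 of 14 alternatives. These were the methods' t-test, adjusted over all probe sets (0.0657), and leaving out any P5 array or P5-EM replicate 2 (0.0595 to 0.0921). Without P5-EM replicate 1 PTP2 was at -0.90 (0.00193). The kinase gene KSS1, the phosphatase gene PTP3 and MCM1, whose product works with α2 on the a-specific genes, were at -0.43, -0.47 and -0.65 with P5-EM wholly below P5, and did not pass (0.0696 to 0.0778). These 3 passed toward lower without P5-EM replicate 1 (0.0185 to 0.038), as did the kinase gene STE11 at -0.53 (0.0299), while SST2, for a protein that turns off the G protein, passed toward higher at 0.52 (0.0324). STE12 itself was at -0.42 and overlapped between strains (0.286), and at -0.18 without P5-EM replicate 1.

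Of 19 genes that pheromone induces, 5 were lower, each at least 2-fold, 1 was higher and 13 did not pass (median -0.15). Over all probe sets 7.78% were lower, 2.6% lower at 2-fold or more, and 6.09% higher. The lower ones were PRM5 at -2.08, CHS1 of chitin synthesis at -1.83, PRM4 at -1.30, the kinesin gene KAR3 at -1.15 and PRM10 at -1.08 (adjusted p from 0.00652 to 0.0135, limma). PRM5 was near background in P5-EM, at 2.10, 2.74 and 2.32, so the size of its change is uncertain. There, 5.5% of the S. pombe probe sets were at or above its mean. PRM5 also responds to cell wall stress, KAR3 acts in mitosis as well, and CHS1 acts in repair of the septum. Why the 5 genes were lower was not tested. PRM2, needed for nuclear fusion, was higher at 0.47 (0.0389), a call lost in 8 of 14 alternatives, among them each array left out other than P5-EM replicate 1 (adjusted p up to 0.136). The calls of PRM4 and CHS1 were lost in 2 alternatives, without P5 replicate 2 and without P5 replicate 3 (0.0574 and 0.0689), those of PRM5 and KAR3 in these and by the methods' t-test, and that of PRM10 in 5 (up to 0.0885). FIG2 and PRM1 of cell fusion, at 0.82 and 0.61, did not pass (0.0838 and 0.127), and FIG2 passed toward higher without P5-EM replicate 1 (0.0355). FIG1 and PRM8 were under background on all 6 arrays. The same 5 genes were lower without P5-EM replicate 1 (0.000701 to 0.00196).

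**Figure D4:**
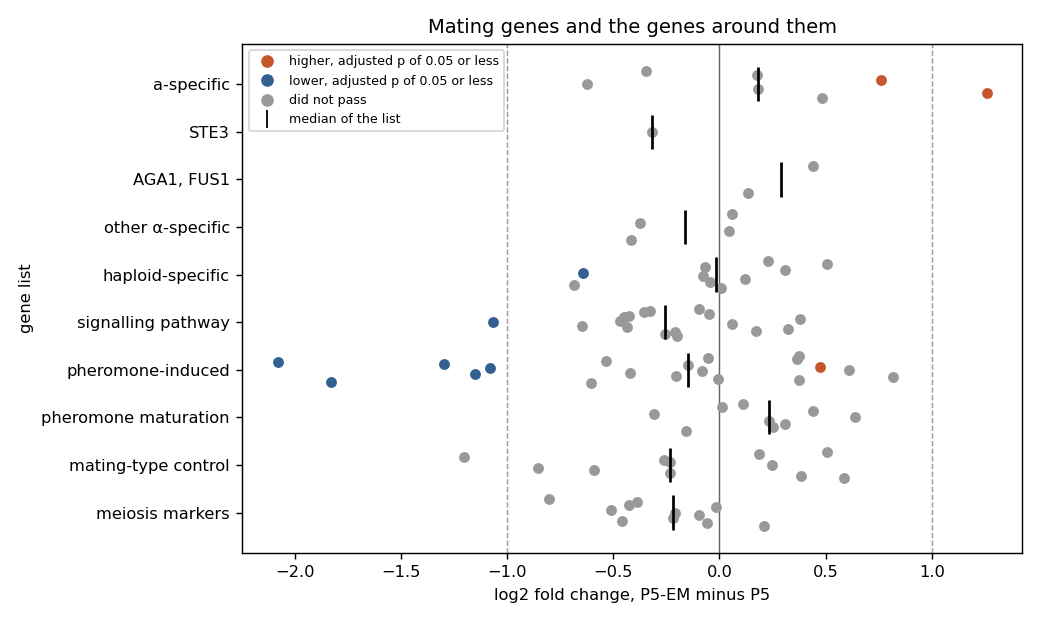
Log2 fold change (horizontal axis, P5-EM minus P5) of each mating gene and each gene of the 7 lists around them, grouped by list, with a point per gene and a bar at the median of each list. Calls toward higher were ASG7, MFA2 and PRM2, and 5 of the 7 calls toward lower were pheromone-induced genes.

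Of 9 enzymes that mature the pheromones, 0 passed in either direction (limma, median 0.23), with or without P5-EM replicate 1 (median 0.06 without it). RAM1, which attaches the farnesyl group to a-factor, and RCE1, a protease of its precursor, were at 0.31 and 0.64 (adjusted p = 0.114 and 0.107). KEX2 and STE13, which process α-factor, were at 0.25 and -0.31 (0.156 and 0.101). Of 11 measured mating-type regulators, 0 passed (median -0.23, and 0.06 without P5-EM replicate 1). ASH1, a repressor of HO in daughter cells, was at 0.59, the corepressor genes TUP1 and CYC8 at 0.51 and 0.38, and the silencing gene SIR4 at -1.20 (0.0551 to 0.113). SIR4, ASH1 and the HO activator gene SWI5 passed without P5-EM replicate 1, at -0.66, 0.63 and 0.79.

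The transcripts of the mating-type locus itself come with a limit, since silent copies of the same sequences lie elsewhere in the genome and the array names the probe sets for those copies. HMRA1, which stands for a1, read 6.14, 6.04 and 6.01 in P5 and 4.28, 6.10 and 6.04 in P5-EM. P5-EM replicate 1 alone was low, and without it the log2 fold change was 0.01. HMRA2, whose sequence α2 shares, had a mean of 7.88 ± 0.13 (SD, n = 3) in P5 and read 6.06, 7.60 and 7.42 in P5-EM (log2 fold change -0.85, adjusted p = 0.173, limma, and -0.37 without P5-EM replicate 1). HMLALPHA1, which stands for α1, read 3.23, 3.13 and 3.60 in P5 and 2.96, 3.24 and 3.07 in P5-EM (0.327). The signals of both a1 and α1 were thus above background in both strains. That of α1 lay near it, at means of 3.32 in P5 and 3.09 in P5-EM, with 1 and 7 S. pombe probe sets at or above them. Of 11 markers of meiosis and spore formation, 0 passed (limma, median -0.22), beside 6.09% of all probe sets called higher and 7.78% lower. NDT80 was at -0.51 (0.0671), HOP1 at -0.46 (0.146), SPO13 at -0.42 (0.212) and SPS4, under background in both strains, at -0.39 (0.125). Without P5-EM replicate 1 the median was -0.06, and NDT80 and SPS4 passed toward lower (0.0485 and 0.0491).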

How the data were processed

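Total RNA of 3 cultures each of P5 and P5-EM was amplified from 25 ng over 17 cycles and hybridised. The authors made the raw array files with GCOS and log2 expression estimates per probe set with RMA in Partek. These deposited log2 values were used as they stand. Of 10928 probe sets, 5498 belong by the array annotation to 1 S. cerevisiae gene, 1746 to 1 S. pombe gene, and 3683 are not in the annotation used and were left out. Where a gene had more than 1 probe set, the brightest on average over the 6 arrays stood for it. Probe sets hybridise with different strength, so levels were set against background and between strains only.

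The strains were tested with limma 3.58.1 (R 4.3.3), strain being the only term, and p-values were adjusted over 5498 probe sets after Benjamini and Hochberg. The script was first tested on simulated data. The number of arrays, 3 a strain, limits the precision. As alternatives, the test, the normalization, the filter and the reading of genes were changed, a replicate block was added and each array was left out. The methods' t-test was adjusted over all 5498 probe sets, whereas the study tested genes at 2-fold or more. Adjustment over the 2-fold probe sets alone was run only to count the probe sets that passed.

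The members and gene lists were chosen with earlier results of these data known. Named were all 10 members, the 4 genes per list with the lowest adjusted p, and the 3 genes most like each called member. GPA1, HO, STE11, STE12, SST2, PRM1, PRM2, PRM8, PRM10, FIG1, FIG2, SWI5, HMRA1, HMRA2 and HMLALPHA1 were named after their values were seen. MATALPHA1, MATALPHA2 and HMLALPHA2 were not analysed here.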

Additional observations from a re-analysis of the deposited data

How the results depend on the processing

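Over the 14 alternatives, ASG7 kept its sign in 14 and passed in 12, with log2 fold changes from 1.19 to 1.48, and MFA2 kept its sign in 14 and passed in 9 (0.54 to 1.13). AGA2 passed in 4. MFA1, STE2, STE6, BAR1, STE3, AGA1 and FUS1 passed in none. The 2 mating genes called higher became 1 by the methods' t-test and 1 with the replicate block, and ranged from 0 to 3 with 1 array left out. By the methods' t-test, ASG7 was the 1 mating gene at 2-fold and an unadjusted p at their threshold, among 242 probe sets (190 after Benjamini-Hochberg adjustment over the 2-fold probe sets). Genes of the 7 lists called higher (1) became 19 with array weights, 0 with an intensity trend, 2 with all probe sets of a gene averaged, 3 with median centring, 0 by the methods' t-test, 6 with quantile normalization and 0 with the replicate block (0 to 7 with 1 array left out). Those called lower (7) became 28 with array weights and 2 by the methods' t-test (0 to 16). Over all probe sets, the 335 higher and 428 lower became 1583 and 1639 with array weights, 61 and 102 by the methods' t-test, and 83 and 125 with the replicate block (0 to 669 and 0 to 793). The cause was not tested. Same-numbered samples did not deviate together (r from -0.277 to -0.022). These deviations are from means of only 3 arrays, so they cannot settle whether samples were handled in pairs. The mating genes above background in P5-EM ranged from 9 to 10.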
